A study of Mus musculus with 8 samples.

Results

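Transcripts of the inflammasome and the interleukin-1 family were examined in adipose tissue macrophages of obese mice, with and without the microRNA clusters Mirc11 and Mirc22. The set was chosen by gene symbol and holds 10 genes, all 10 of which were found among the 15867 genes of the deposited table and all 10 of which passed the filter on low values (a mean of at least 10). They are the cytokines Il1b and Il18, their soluble inhibitors Il1rn and Il18bp, the receptor genes Il1r1, Il1r2 and Il1rap, and the inflammasome genes Nlrp3, Casp1 and Gsdmd. Macrophages bearing F4/80 were selected from adipose tissue after 20 weeks of high-fat feeding, and their polyadenylated RNA was sequenced. The control group (Mirc11fl/fl Mirc22fl/fl Lyz2+/+, n = 4) and the knockout group (Mirc11fl/fl Mirc22fl/fl Lyz2Cre/Cre, n = 4) both carry loxP-flanked clusters. Cre is expressed from the Lyz2 locus, which is active in myeloid cells, so that cells without Lyz2 expression keep both clusters. The knockout group alone carries Cre, and on both Lyz2 alleles, so that loss of the clusters, Cre and loss of Lyz2 cannot be told apart. Age, and whether each sample is a single animal or a pool, are not given in the sources used here, and p-values thus measure the spread between these samples.

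Interleukin-1β and interleukin-18 are made as inactive precursors. A danger signal lets the sensor NLRP3 assemble an inflammasome that activates caspase-1, which cuts both precursors and also gasdermin D, whose fragments form pores in the membrane through which the cytokines leave. Interleukin-1β acts through the receptor encoded by Il1r1 with the accessory chain encoded by Il1rap, and is restrained by the receptor antagonist (Il1rn) and the decoy receptor (Il1r2), as interleukin-18 is by its binding protein (Il18bp). In obese adipose tissue macrophages are a known source of interleukin-1β. Transcript levels say nothing of cleavage or release, which were not measured.

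Mature microRNAs of the clusters are shown because their seeds (bases 2 to 8, in capitals) define the sites looked for in the 3' untranslated regions (3' UTRs) of the 10 genes. The sequences are from RefSeq on GRCm38.p6, 5′ to 3′. The miR-27 pair shares a seed and differs near its 3′ end, and miR-24-3p is encoded in both clusters.
mmu-miR-23a-3p: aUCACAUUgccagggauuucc
mmu-miR-27a-3p: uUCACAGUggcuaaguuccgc
mmu-miR-27b-3p: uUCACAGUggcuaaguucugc
mmu-miR-24-3p: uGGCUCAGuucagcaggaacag
In mm10 coordinates, miR-23a-3p lies on chromosome 8 from 84208563 to 84208583, miR-27a-3p from 84208727 to 84208747 and miR-24-3p from 84208875 to 84208896, all in Mirc11. MiR-27b-3p lies on chromosome 13 from 63300760 to 63300780, in Mirc22, where the other copy of miR-24-3p spans 63301251 to 63301272. Mirc22 also encodes miR-23b-3p.

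The 7-base matches to these seeds, AATGTGA for miR-23, ACTGTGA for miR-27 and CTGAGCC for miR-24, were searched on the transcript strand only, in the longest annotated 3' UTR of each gene. Of the 9 members with an annotated 3' UTR of at least 30 bases (all but Il1r2), 1 held a match, against 41.1% of 14796 tested genes with such a region. The members' regions were shorter, with a median of 693 bases against 1182. The match was a miR-24 site in Il1rap, at chromosome 16 from 26717288 to 26717294 on the plus strand, position 2220 of a 3' UTR of 2676 bases. Of genes with a 3' UTR within 20% of that length, 30.6% held the same 7 bases. Among the 8 other genes of the pathway that passed the test below, only P2rx7 (3 matches) and Ccl2 (1 match) held any. Of genes with a 3' UTR within 20% of the length of that of P2rx7, 32.8% held the miR-24 match and 28.6% the miR-27 match. For the length of the Ccl2 region 3.75% held the miR-27 match. The sites are printed with the match in capitals.
Il1rap, miR-24: ccttcttattCTGAGCCcactctagtg
P2rx7, miR-24: ctcttaactaCTGAGCCatctctccac
P2rx7, miR-24: ggatgcacatCTGAGCCtgcagcctga
P2rx7, miR-27: agtcactagtACTGTGAgaaaccggtt
Ccl2, miR-27: tgtgactcggACTGTGAtgccttaatt
The first P2rx7 site is followed by an A, which makes it the longer, 8-base type. A match is a run of letters and was not tested as a binding site.

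Values are the deposited normalized counts, that is, reads divided by a factor for each library, given for replicates 1 to 4 in that order and as mean ± SD. A difference is the knockout mean less the control mean on the log2(normalized count + 1) scale, which understates changes of low genes. It was tested with limma, p-values were adjusted over 15862 genes by the Benjamini-Hochberg method, and the threshold was 0.05. Reads recovered from the deposited values summed to 31789395 to 46621080 a library over the 15867 genes. Lyz2 was at 156727 or more in every control and at 273 or less in every knockout library, as the labels say. Over all genes 573 passed (3.61%), 196 higher (1.24%) and 377 lower (2.38%) in knockout. The share of calls that were higher was 34.2% and became 50.1% with each library scaled to the same total. F4/80 itself (Adgre1) was between 37440 and 54126 in all 8 libraries. The 9 macrophage markers other than Lyz2 summed to 324151 to 466595 in control libraries against 287105 to 314706 in knockout libraries. Sums of dendritic cell markers (1676 to 2536 against 2592 to 3042) and of adipocyte markers (1237 to 1708 against 1795 to 2248) were higher in every knockout library. The macrophage markers were not alike. Cd68, Csf1r, Itgam and Fcgr1 were lower in every knockout than in every control library, while Adgre1, Mertk, C1qa, C1qb and C1qc overlapped between groups. What lies behind the lower sums was not tested, and bulk samples cannot tell fewer macrophages from less RNA per macrophage.

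None of the 10 genes passed the threshold in limma or in edgeR (0 of 10, beside 3.61% and 3.51% of all genes). DESeq2 gave an adjusted p to 9 of the 10, all but Il1r2, and called 1, Il1r1, as higher in knockout. Of the 14305 genes to which it gave one, it called 10.9% in either direction and 4.66% as higher. An unadjusted limma p below 0.05 was found for 1 of 10, again Il1r1, where 21.2% of all genes had one. The groups did not overlap for 2 of 10, Il1r1 and Il1rap, against 13.7% of all genes. Il1r1 was the one higher in knockout (5.52% of all genes) and Il1rap the one lower (8.21%). Of the 10 differences 5 were positive and 5 negative, with a median of 0.04 beside 0.00 over all genes. They ran from -0.31 for Nlrp3 to 0.54 for Il1r2.

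**Figure D1:**
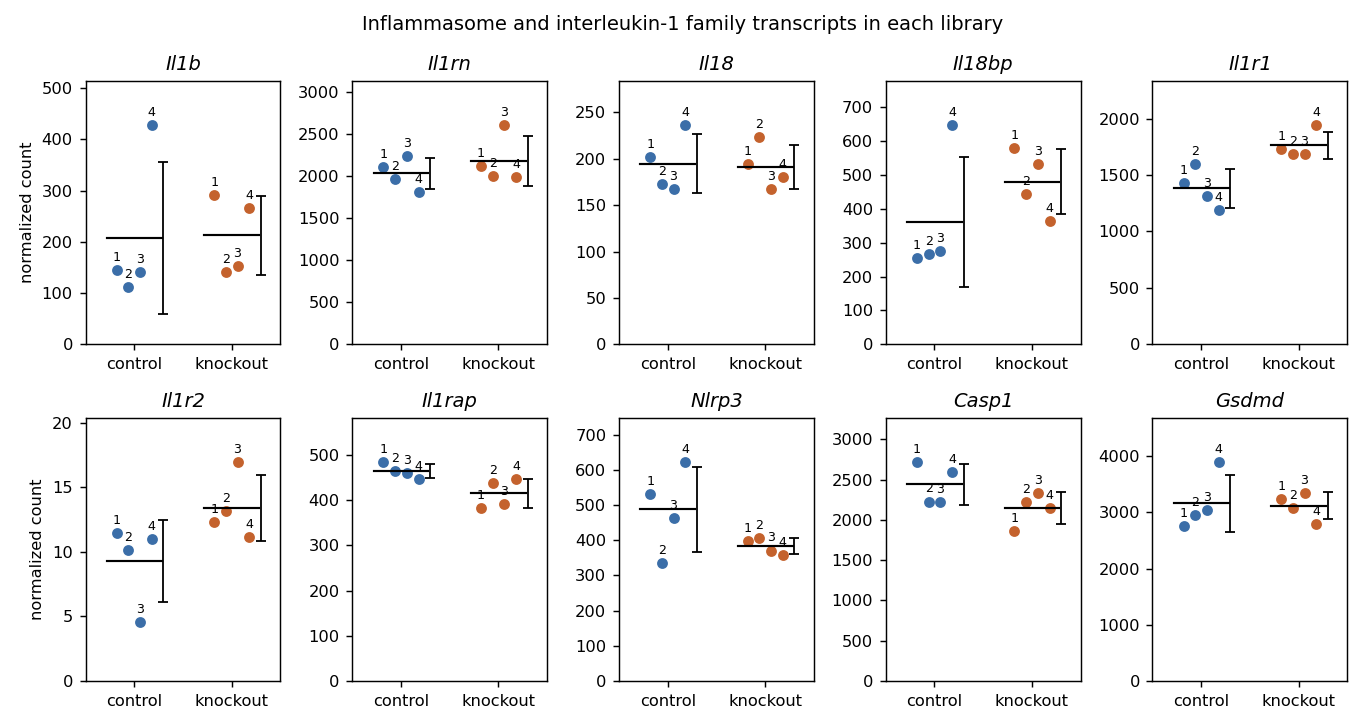
Normalized count (vertical axis, linear, starting at 0) of each of the 10 genes in the 4 control (blue) and 4 knockout (orange) libraries, numbered by replicate, with the group mean (line) and SD (bar). Il1r1 is higher in every knockout library, and control replicate 4 stands above the other controls in Il1b (428) and Il18bp (648).

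Levels between genes were compared per kilobase of the longest annotated coding transcript. In control libraries Gsdmd and Casp1 led, at 1765 ± 284 and 1631 ± 172 normalized counts per kilobase, with overlapping ranges. Il1rn followed at 822 ± 74.2, above the range of every gene below it. Il1r1 (237 ± 29.7), Il18 (220 ± 36.0), Il1b (152 ± 109), Il18bp (139 ± 73.6), Nlrp3 (121 ± 30.2) and Il1rap (103 ± 3.53) came next, each overlapping its neighbour in this order. Il1r2 was lowest at 6.55 ± 2.26. The order in knockout libraries was the same except that Il18bp (185 ± 37.1) stood before Il1b (157 ± 57.1). Transcripts of the protease and of the pore-forming protein exceeded those of both cytokines in every library, and the antagonist Il1rn exceeded Il1b by a factor between 2.32 and 9.65.

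Among the cytokines, Il1b (chromosome 2, 129364570 to 129371139) was the most variable. Control libraries had 146, 112, 141 and 428, and knockout libraries 292, 141, 152 and 266. Control replicate 4 was the highest of all 8, and knockout replicates 1 and 4 lay above the other 5. The means were 207 ± 148 and 213 ± 77.4, a difference of 0.19 (SE 0.42, limma adjusted p = 0.844). Its 95% confidence interval spans folds from 0.587 to 2.21, so that changes inside that wide range are not excluded in either direction. Without control replicate 4 the difference was 0.61 (SE 0.28, limma adjusted p = 0.303).

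Il18 (chromosome 9, 50554827 to 50581840) varied less. It measured 202, 173, 167 and 237 in control and 194, 223, 168 and 180 in knockout libraries. The groups overlapped throughout, with a difference of -0.02 (SE 0.14, limma adjusted p = 0.957) and folds from 0.790 to 1.23 inside the 95% confidence interval.

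Of the inhibitors, Il1rn (chromosome 2, 24336853 to 24351494), the antagonist that occupies the interleukin-1 receptor without activating it, measured 2117, 1969, 2238 and 1814 in control and 2121, 2007, 2614 and 1989 in knockout. Knockout replicate 3 was the highest and the other 7 libraries were interleaved. The difference was 0.10 (SE 0.10, limma adjusted p = 0.628), with a 95% confidence interval of 0.914 to 1.25 as a fold.

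Il18bp (chromosome 7, 102014885 to 102018690), which binds and neutralizes secreted interleukin-18 and is induced by interferon-γ, showed a pattern that turned on 1 library. Controls had 255, 266, 276 and 648, and knockouts 581, 444, 532 and 363. Every knockout library lay above control replicates 1 to 3, and control replicate 4 lay above every knockout library. With all 8 libraries the difference was 0.51 (SE 0.30, limma adjusted p = 0.365). Without control replicate 4 the means were 266 ± 10.4 (n = 3) and 480 ± 96.4 (n = 4), a difference of 0.83 (SE 0.16, limma adjusted p = 0.0427). In the 7 other fits that left out 1 library the limma adjusted p of Il18bp was above 0.05.

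Il1r1 (chromosome 1, 40225080 to 40317257), the signalling receptor for both forms of interleukin-1, had the smallest p of the 10. Controls measured 1425, 1596, 1309 and 1191, and knockouts 1730, 1685, 1688 and 1943. The highest control library was below the lowest knockout library, and control replicate 4 was the lowest of all. The means were 1380 ± 173 and 1762 ± 123, a difference of 0.36 (SE 0.09, limma adjusted p = 0.0743; unadjusted p = 0.00391). The fold was 1.28 with a 95% confidence interval of 1.11 to 1.48. The edgeR adjusted p was 0.0768 and that of DESeq2 0.0136. The authors' deposited table, which divides control by knockout, lists -0.35 for Il1r1 with the same adjusted p of 0.0136. Leaving out control replicate 2 gave a limma adjusted p of 0.0407, and leaving out any other library gave 0.103 to 0.160.

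Il1r1 is also made by fibroblasts and endothelial cells, so their markers are given beside it. All 10 of 10 endothelial markers had a positive difference (median 0.51). In limma and edgeR 0 passed, 8 had an unadjusted limma p below 0.05 and DESeq2 called 4. They summed to 69039 to 118550 in control libraries against 109617 to 155756 in knockout libraries. For fibroblasts, all 10 of 10 markers had a positive difference (median 0.35), 0 passing in limma and edgeR, 3 at an unadjusted limma p below 0.05 and 1 in DESeq2. Their sums were 98017 to 168850 and 132891 to 207120. No deposited value is 0, so these 20 markers could not have been at 0 in any library. Their part in the Il1r1 difference was not tested.

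Il1r2 (chromosome 1, 40074079 to 40125231), the decoy receptor without a signalling domain, was barely detected. It measured 11.5, 10.2, 4.55 and 11.0 in control and 12.3, 13.2, 17.0 and 11.1 in knockout, from 4 to 16 reads a library. These counts overlap, and control replicate 3 was the lowest (difference 0.54, SE 0.34, limma adjusted p = 0.401). A difference of that size in so few reads was not detectable as such.

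Il1rap (chromosome 16, 26581704 to 26730117), the accessory chain needed for signalling by the interleukin-1 receptor and shared with the receptor for interleukin-33, was the one member holding the miR-24 site printed above. Controls had 485, 466, 459 and 447.2, and knockouts 382, 438, 392 and 447.1. The groups did not overlap, but the lowest control and the highest knockout library were nearly equal. The means were 464 ± 16.0 and 415 ± 32.5, a difference of -0.16 (SE 0.08, limma adjusted p = 0.263).

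In the inflammasome, Nlrp3 (chromosome 11, 59541568 to 59566956), the sensor, measured 531, 335, 463 and 624 in control and 399, 405, 371 and 358 in knockout. Knockout libraries lay within a narrow band inside the control range, above control replicate 2 and below the other 3. The coefficient of variation was 24.9% in control and 5.88% in knockout. The difference was -0.31 (SE 0.17, limma adjusted p = 0.327), and -0.18 without control replicate 4 and -0.48 without control replicate 2 (limma adjusted p = 0.562 and 0.0636).

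Casp1 (chromosome 9, 5298517 to 5307265), the protease of the complex, measured 2725, 2229, 2218 and 2593 in control and 1868, 2223, 2330 and 2154 in knockout. Control replicates 1 and 4 were above all knockout libraries and the other controls lay among them. The difference was -0.19 (SE 0.09, limma adjusted p = 0.285). Gsdmd (chromosome 15, 75862327 to 75867408), the pore-forming protein, measured 2750, 2947, 3049 and 3903 in control and 3241, 3085, 3345 and 2800 in knockout. Control replicate 4 was the highest of all 8 libraries, and knockout replicates 1 to 3 lay above the other 3 controls (difference -0.01, SE 0.11, limma adjusted p = 0.969; fold interval 0.839 to 1.18). Without control replicate 4 it was 0.0951.

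**Figure D2:**
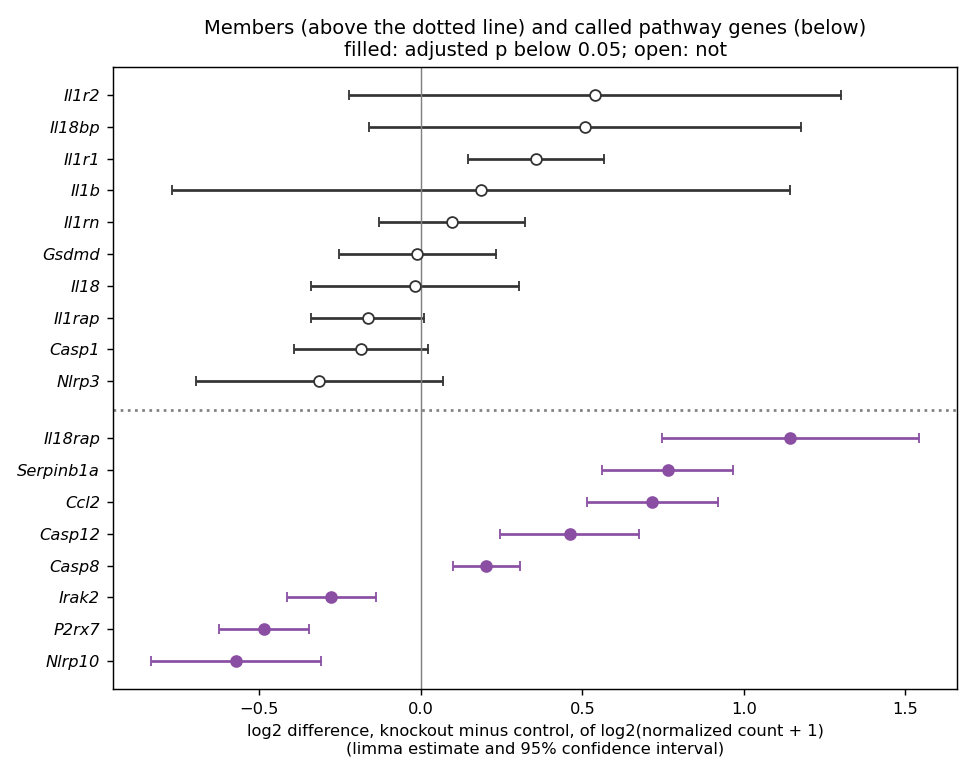
Log2 difference (knockout minus control, horizontal axis) with 95% confidence interval from limma for the 10 members and for the 8 other pathway genes with an adjusted p below 0.05 (filled points). The interval of Il1r1 (0.15 to 0.57) is the only member interval that leaves out 0, and none of the members passes after adjustment.

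Control replicate 4 was the highest of the controls in 5 of the 10 genes (Il1b, Il18, Il18bp, Nlrp3 and Gsdmd) and the highest of all 8 libraries in the same 5. Over all genes it was the highest control for 27.9% and the highest of all 8 libraries for 14.6%. The listed interleukin-1 target genes followed a like pattern, with control replicate 4 the highest control in 7 of 10 and the highest library in 6 of 10. It was also the highest control in 7 of 13 signalling genes, 6 of 12 sensor and adaptor genes and 6 of 13 regulators. The counts were 2 of 5 for further receptors, 2 of 5 for pyroptosis effectors and 0 of 3 for further ligands. Tnfaip3, an NF-κB inhibitor that NF-κB itself induces, had 2345, 1712, 2160 and 4913 in control and 2708, 1680, 1489 and 2141 in knockout. Nfkbia, the most abundant of these targets, had 4086, 3399, 4466 and 7694 in control and 5111, 3718, 3587 and 4368 in knockout (difference -0.17, SE 0.23, limma adjusted p = 0.725). In both genes control replicate 4 was far above the other 7 libraries. Gbp2, a guanylate-binding protein induced by interferon, had 1579, 1985, 2259 and 6794 in control and 3678, 2854, 4608 and 2666 in knockout. As with Il18bp, its knockout libraries all lay between control replicates 1 to 3 and control replicate 4. Tnfaip3 and the 3 interferon-inducible GTPases plotted (Gbp2, Gbp5 and Gm12250) were chosen after their values were seen.

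**Figure D3:**
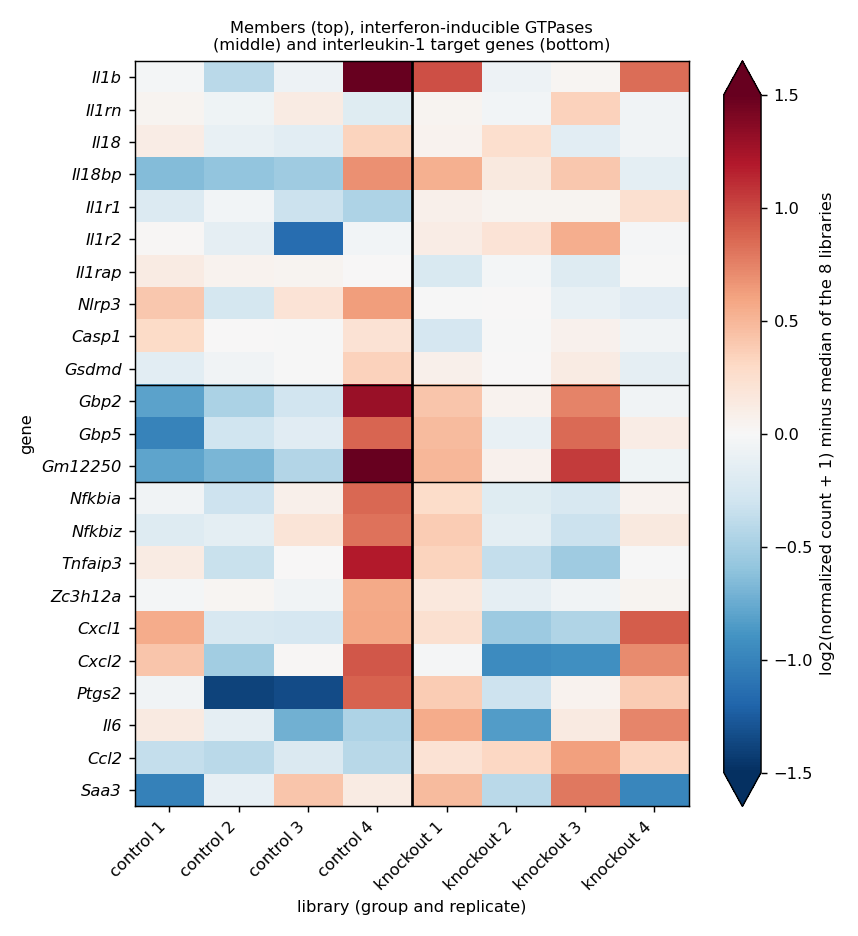
Each library's log2(normalized count + 1) minus the median of the 8 libraries (color, log2 scale, clipped at 1.5 either way) for the 10 members, 3 interferon-inducible GTPases and the 10 interleukin-1 target genes. Control replicate 4 is high in Il1b, Il18bp, Nlrp3, the GTPases and Tnfaip3, while Ccl2 is higher in all 4 knockout libraries.

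The library pattern of Il1b, with each group centred on its own mean, was most like that of Nr4a2 (r = 0.98), an orphan nuclear receptor induced rapidly by stimulation, Cebpb (r = 0.98), a transcription factor of the macrophage inflammatory response, and Phlpp1 (r = 0.98), a phosphatase, among 12362 genes with a mean of at least 100. Cebpb had 4848, 3695, 4573 and 8541 in control and 5224, 3788, 3849 and 4667 in knockout. For Il1r1 the most alike were Dnaaf2 (r = 0.97), Zfp26 (r = 0.96) and Col12a1 (r = 0.96). Col12a1, a fibril-associated collagen, had 314, 359, 256 and 168 in control and 394, 329, 344 and 482 in knockout. These correlations over 8 libraries describe them and carry no test.

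Outside the 10 genes, 61 of 71 listed genes of the pathway were measured, and 8 passed in limma, 5 higher and 3 lower in knockout, beside 3.61% of all genes. The lists were chosen with earlier results of these data known, so these counts and those by list cannot show enrichment. Their median difference was 0.00, as over all genes. In the lists of further interleukin-1 family receptors 1 of 5 rose, beside 1.24% of all genes. Il18rap, the signal-competent accessory chain of the interleukin-18 receptor, had 41.7, 44.7, 33.0 and 44.9 in control and 74.7, 101, 107 and 86.0 in knockout libraries. All knockout libraries were above all controls (difference 1.14, SE 0.18, limma adjusted p = 0.0138). Its partner Il18r1, the binding chain, went the same way in every library without passing in limma: 47.5, 30.5, 37.5 and 54.9 against 69.4, 92.3, 63.8 and 72.8 (0.81, SE 0.22, limma adjusted p = 0.0796; DESeq2 adjusted p = 0.0286). The receptor for interleukin-33, Il1rl1, was the most abundant of this list and overlapped between groups (949 ± 66.3 and 935 ± 154).

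T and NK cells carry the interleukin-18 receptor. All 10 of 10 of their markers had a positive difference (median 0.83), 0 passing in limma, in edgeR or among the 8 with a DESeq2 adjusted p, and 4 at an unadjusted limma p below 0.05. None was at 0, which holds for every gene in these data. They summed to 380, 461, 402 and 958 in control and 1504, 796, 613 and 447 in knockout libraries, which overlap. Markers of other cells also leaned this way. Of 8 mast cell and eosinophil markers, 7 had a positive and 1 a negative difference (median 0.81, lowest -1.22). In limma and in edgeR 1 passed as higher and 1 as lower, and DESeq2 called 3 higher and 1 lower. The groups did not overlap for 4 of these 8 markers, beside 13.7% of all genes. The part of any of these cells in the Il18rap and Il18r1 differences was not tested.

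None of the 3 measured further ligands (Il1a, Il33 and Il1f9, which encodes interleukin-36γ) passed in limma or edgeR, and 0 had an unadjusted limma p below 0.05. DESeq2 gave an adjusted p to Il33 alone, which did not pass. Il33, an alarmin of stromal cells and the most abundant, was 343 ± 84.5 and 386 ± 96.9, and Il1f9 was 12.1 ± 2.38 and 15.8 ± 3.16.

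Of 13 genes that license or regulate inflammasomes 1 fell and 1 rose, beside 2.38% and 1.24% of all genes. P2rx7, the ATP-gated channel whose opening lets potassium out and so triggers NLRP3, had 6152, 5318, 5881 and 6099 in control and 3942, 4408, 4294 and 4092 in knockout. It was lower in all 4 knockout libraries (-0.49, SE 0.06, limma adjusted p = 0.00644). Beside it, all 10 macrophage markers had a negative difference (median -0.36), and 4 of them passed in limma (Cd68, Csf1r, Itgam and Lyz2). Lyz2 holds Cre on both alleles in knockout, so its fall was set by the genotype. The part of the markers in the P2rx7 value was not tested. Serpinb1a, an inhibitor of neutrophil-type serine proteases, had 431, 481, 482 and 395 in control and 772, 837, 724 and 706 in knockout (0.76, SE 0.09, limma adjusted p = 0.00499). The limma calls of P2rx7 and Serpinb1a remained in all 8 fits that left out 1 library. DESeq2 called 4 of the 13 higher and 2 lower, beside 10.9% of all genes in either direction. The largest positive differences of the list were those of Ifi213 (1.18, SE 0.30, limma adjusted p = 0.0711, DESeq2 adjusted p = 0.00598) and Ifi208 (0.97, SE 0.22, limma adjusted p = 0.0508, DESeq2 adjusted p = 0.00172). Neither passed in limma, and both were picked after their values were seen. Txnip, a thioredoxin-binding protein that can bind NLRP3, was the most abundant of the list, at 50986 ± 2056 and 53323 ± 2320, and did not pass.

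Of 12 measured genes for other inflammasome sensors and for the adaptor, 1 fell, beside 2.38% of all genes. The other 11 did not pass, and the list had a median of -0.12 and a negative difference in 10. Nlrp10, a NOD-like receptor without a leucine-rich repeat domain, had 479, 459, 401 and 338 in control and 264, 278, 298 and 278 in knockout. No library of one group reached the other (-0.57, SE 0.12, limma adjusted p = 0.0343). Naip6, one of the NAIP receptors for bacterial proteins, was 1648 ± 110 and 1446 ± 70.3 (-0.19, SE 0.06, limma adjusted p = 0.140), and Naip5, the most abundant of the list, 2121 ± 170 and 1982 ± 90.9. NAIP paralogs are alike in sequence, so the split of reads between them is uncertain.

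Of 5 pyroptosis effectors 2 rose, beside 1.24% of all genes. Casp12, an inflammatory caspase linked to the endoplasmic reticulum, had 441, 557, 444 and 477 in control and 701, 623, 707 and 607 in knockout (0.46, SE 0.10, limma adjusted p = 0.0368). Casp8, the caspase that starts death receptor apoptosis and can also cut interleukin-1β, had 3212, 3102, 3304 and 3242 in control and 3654, 3643, 3599 and 3913 in knockout (0.20, SE 0.05, limma adjusted p = 0.0491). Both genes were higher in every knockout than in every control library. Ninj1, which ruptures the membrane after pores form, was the most abundant, at 8007 ± 1150 and 7981 ± 946.

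In signalling downstream of the interleukin-1 receptor 1 of 13 genes fell, beside 2.38% of all genes. Irak2, a member of the IRAK kinase family needed for prolonged signalling, had 2300, 2058, 2193 and 2295 in control and 1947, 1699, 1772 and 1883 in knockout, with all knockouts below all controls (-0.28, SE 0.06, limma adjusted p = 0.0441). Tollip, which dampens it, was 4125 ± 47.3 and 3621 ± 157 (-0.19, SE 0.05, limma adjusted p = 0.0589; DESeq2 adjusted p = 0.00284). Tab2, the most abundant, did not pass (4550 ± 273 and 4291 ± 29.9).

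Of 10 target genes 1 rose, beside 1.24% of all genes. It was Ccl2, the chemokine that recruits monocytes, with 801, 773, 879 and 766 in control and 1196, 1274, 1565 and 1279 in knockout (0.72, SE 0.09, limma adjusted p = 0.00641). Fibroblasts and endothelial cells also make Ccl2, and the part of their markers, given beside Il1r1, was not tested. Il6 did not pass, at 64.4 ± 16.8 and 92.7 ± 37.8. The calls of Il18rap and Ccl2 held in all 8 fits that left out 1 library, while those of Nlrp10, Irak2 and Casp12 were lost in 7 and that of Casp8 in all 8.

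Leaving out control replicates 1 to 4 in turn left 2.4%, 3.17%, 1.03% and 2.06% of all genes past the limma threshold, and leaving out knockout replicates 1 to 4 left 1.33%, 1.93%, 1.52% and 1.5%. Of the 10 members 1 passed without control replicate 2 (Il1r1), 1 without control replicate 4 (Il18bp) and 0 in the other 6 fits.

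**Figure D4:**
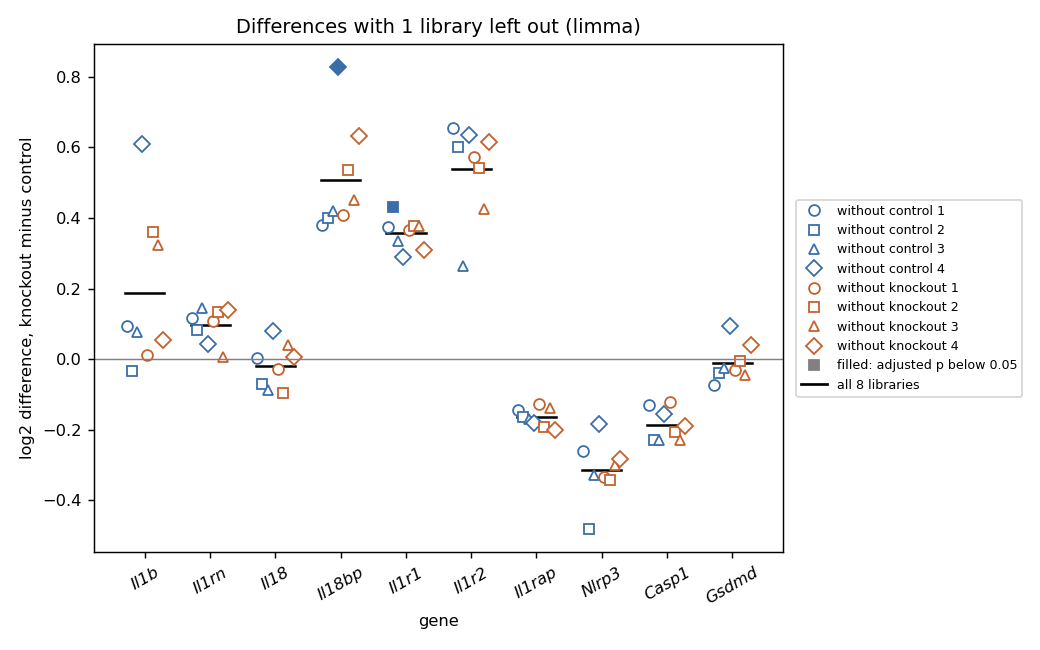
Log2 difference (knockout minus control, vertical axis) of each member with 1 library left out in turn (symbols; blue for controls, orange for knockouts) and with all 8 libraries (black lines); filled symbols have a limma adjusted p below 0.05. Il18bp passes only without control replicate 4 (0.83) and Il1r1 only without control replicate 2 (0.43).

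Neutrophils and monocytes also make Il1b, Il1rn and Il1r2. Of 12 listed neutrophil markers 7 were measured, with 0 passing in limma and edgeR, 1 at an unadjusted limma p below 0.05 and 1 of the 4 with a DESeq2 adjusted p. They summed to 1268 to 2134 in control libraries against 1494 to 2723 in knockout libraries. Their defining S100a8 and S100a9 were between 11.0 and 26.6 in all libraries. No measured marker was at 0, but no deposited value is. All 8 monocyte markers were measured, with 7 positive differences, 0 passing in limma and edgeR, and sums of 18483 to 30733 and 21660 to 39610. An unadjusted limma p below 0.05 was found for 5 higher and 1 lower in knockout, and DESeq2 called 2 higher and 1 lower. The lower marker in both was Ccr2 (1954 ± 132 and 1651 ± 38.3). The part of neutrophils and monocytes in the cytokine values was not tested.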

How the data were processed

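The authors deposited normalized gene counts, a signal that is never negative, for 8 libraries. Per the submitters' processing notes FastQC, cutadapt, Salmon, DESeq2 and mm10 were used, with no versions or roles. Values came out as whole reads within 0.01 reads after division by each column's smallest value (100% of values). In control replicate 4 that step is too near 1 to be told from rounding. The smallest value is 1 read, never 0. The authors also deposited a DESeq2 comparison holding, per the file headers, a mean signal, the log2 ratio of control to knockout, its error and statistic (score columns) and p-values. The sources used here do not say whether counting used strand, and annotated genes overlap Il1b, Il1r2, Il1rap, Il18 and Il18bp on the opposite strand. On the same strand, Gm38070 shares 6480 bases with Il1r1 and Gm37347 shares 3071 bases with Il1r2.

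Groups and replicate numbers came from the sample titles. The main test was limma 3.58.1 (R 4.3.3, eBayes with trend) on log2(normalized count + 1) for 15862 genes with a mean of at least 10, two-sided, without covariates. Count models (edgeR 4.0.16, DESeq2 1.42.0) were run on recovered reads. Other alternatives were pseudocounts of 0.5 and 5, a mean of at least 50 or no filter, library-total and quantile scaling, a replicate block, and leaving out each library. The fits were tested on simulated data. Positions, transcript lengths and 3' UTRs came from GENCODE M21 on mm10.

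The members and gene lists were chosen with earlier results of these data known. Named are all members and, for each pathway list, the genes that passed, the 2 of lowest p and the one of highest mean. For Il1b and the member with the smallest p, the 3 most alike genes are named. Ifi208 and Ifi213 were added after their values were seen.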

Additional observations from a re-analysis of the deposited data

Results flagged for a closer look

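Within the control group, the gap between control replicate 4 and the next library took up more of the group's range than Dixon's 95% limit for 4 samples allows, in 2 of the 10 genes. Il1b was at 428 there (gap of 0.893 of the range) and Il18bp at 648 (0.947). No knockout library stood apart in this way for any of the 10. With 20 groups of 4 tested, chance flags about 1 in 20, and over all genes 7.13% of control groups and 6.71% of knockout groups met the same limit.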

How the results depend on the processing

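The member differences with the sign of the reported value and the same side of the threshold in all alternatives run were those of Il1rn, Il1r2, Il1rap, Nlrp3 and Casp1. With each library scaled to the same total the differences of Il18 (0.0395), Gsdmd (0.0482), Il1rl1 (0.0253) and Ninj1 (0.0568) turned positive, as did those of Gsdmd (0.0223) and Ninj1 (0.0599) under quantile normalization; Nlrp10 and Irak2 no longer passed under the scaling to the same total (limma adjusted p = 0.0627 and 0.0607). Leaving out 1 library gave -0.0327 to 0.61 for Il1b, -0.0951 to 0.0790 for Il18, -0.0733 to 0.0951 for Gsdmd, -0.11 to 0.0837 for Il1rl1, -0.32 to 0.0696 for Nfkbia and -0.0680 to 0.0876 for Ninj1. It gave 163 to 502 genes past the threshold, 0 to 1 members and 4 to 6 other pathway genes. DESeq2 called 1557 genes, 1 member and 14 other pathway genes. The cause of these shifts was not tested.

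Same-numbered libraries did not deviate together (r = -0.20, -0.20, -0.04 and -0.29 for numbers 1 to 4), so the replicate numbers were not taken as pairs. With the replicate block 7 genes passed, 0 of the members and 0 of the other pathway genes. Il1r2, at 4 to 16 reads a library, was limited by depth and left the test at a mean of at least 50.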

Other observations

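The ratio of Il1r1 to Il1rap, per base of transcript, was 2.28, 2.66, 2.22 and 2.07 in control and 3.52, 2.98, 3.34 and 3.38 in knockout libraries, without overlap. That of Il1rn to Il1b was 7.96, 9.65, 8.70 and 2.32 in control and 3.98, 7.82, 9.43 and 4.10 in knockout, lowest where Il1b was high. The ratio of Il18bp to Il18 was 0.431, 0.525, 0.564 and 0.934 in control and 1.02, 0.678, 1.08 and 0.688 in knockout, again with control replicate 4 above the other controls. With each group centred on its mean, Il18bp and Gsdmd moved together over the 8 libraries (r = 0.97), and Il1r1 moved opposite to Nlrp3 (r = -0.82). These pairs were picked after their values were seen and describe these 8 libraries, with no test.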
